A study of Xenopus laevis with 8 samples.

Results

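The enzymes that methylate lysine 20 of histone H4 (H4K20) were followed at the mRNA level in *Xenopus laevis* embryos whose xSuv4-20h enzymes had been depleted on one side. Different enzymes build this mark in steps. Kmt5a (also called Set8 or PR-Set7) adds the first methyl group, and Kmt5b (Suv4-20h1) and Kmt5c (Suv4-20h2) add the following ones to give H4K20me2 and H4K20me3. The members were kmt5a.L, kmt5b.L and kmt5b.S, where .L and .S name the long and short chromosome copies that the allotetraploid frog keeps of many genes. They were chosen by name: every probe set whose single gene in the platform annotation was one of the 3. Each gene had 1 probe set, so 3 probe sets of 3 genes stood among 15495 probe sets of 11303 genes. All 3 genes passed the filter on low values and were among the 8219 genes tested.

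H4K20me1 is laid down mainly around mitosis and is linked to chromosome condensation and licensing of replication origins, while H4K20me3 marks silent heterochromatin and repeats. Kmt5a protein is destroyed during S phase by the ubiquitin ligase CRL4-Cdt2, which recognises it on DNA-bound PCNA, so its mRNA is only one of the levels at which the enzyme is set. Suv4-20h enzymes take H4K20me1 as their substrate, so the steps are linked.

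The study compared 4 groups of 2 arrays, all of *Xenopus laevis* neurulae that had been injected on one side with morpholino and a fluorescent tracer and then cut along the midline. Control morphants carried an unrelated morpholino, and double morphants, labelled suv420, carried translation-blocking morpholinos against xSuv4-20h1 and xSuv4-20h2; the injected and the uninjected sides of each were measured separately. Sides of several embryos were pooled for each array, and the study's methods name 2 independent experiments. The labels give 40 ng of morpholino in total placed in neighbouring blastomeres, whereas the supplementary methods describe another dose and a single blastomere, and which applied here is not settled. Uninjected sides came from the same embryos as injected sides, so they are not untreated embryos. Because translation-blocking morpholinos act on the protein, mRNA levels of kmt5b and kmt5c are no measure of the depletion.

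RNA was measured on 1-colour Affymetrix arrays, and values are log2 expression values after GCRMA, a background correction and normalisation that uses probe sequence. Array medians lay between 5.09 and 5.19, and values between 2.14 and 15.35. The labels give the tissue as embryo. Of the markers of neural plate, epidermis, multiciliated cells, mesoderm and endoderm, 42 genes passed the filter on low values and were tested. One with a probe set, tekt2.L, was not. The filter itself removes genes near the lowest value on all arrays, so these 42 do not show which tissues were present. The number of arrays, 2 per group, limits the precision of every value below. A gene was called when its local false discovery rate (local fdr) was under 0.2 in limma, the study's own rule. The local fdr is a model's estimate, from the limma t statistic, of how likely a difference is noise. With so few arrays it can be very small where the p-value is not, so it serves as a rule for calls and not as a probability. For this reason p-values adjusted after Benjamini-Hochberg stand beside it. In the main fit, with the filter on low values, none of the 3 genes was called in any of 6 comparisons. Some other settings that kept the filter did give calls, as described below. Without that filter kmt5a.L passed in 2 of them and kmt5b.S in 3, in a setting where the local fdr called 715 to 1543 of 10273 genes (6.96% to 15%) in place of 133 to 460 of 8219 (1.62% to 5.6%) in the 5 comparisons of groups.

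**Figure D1:**
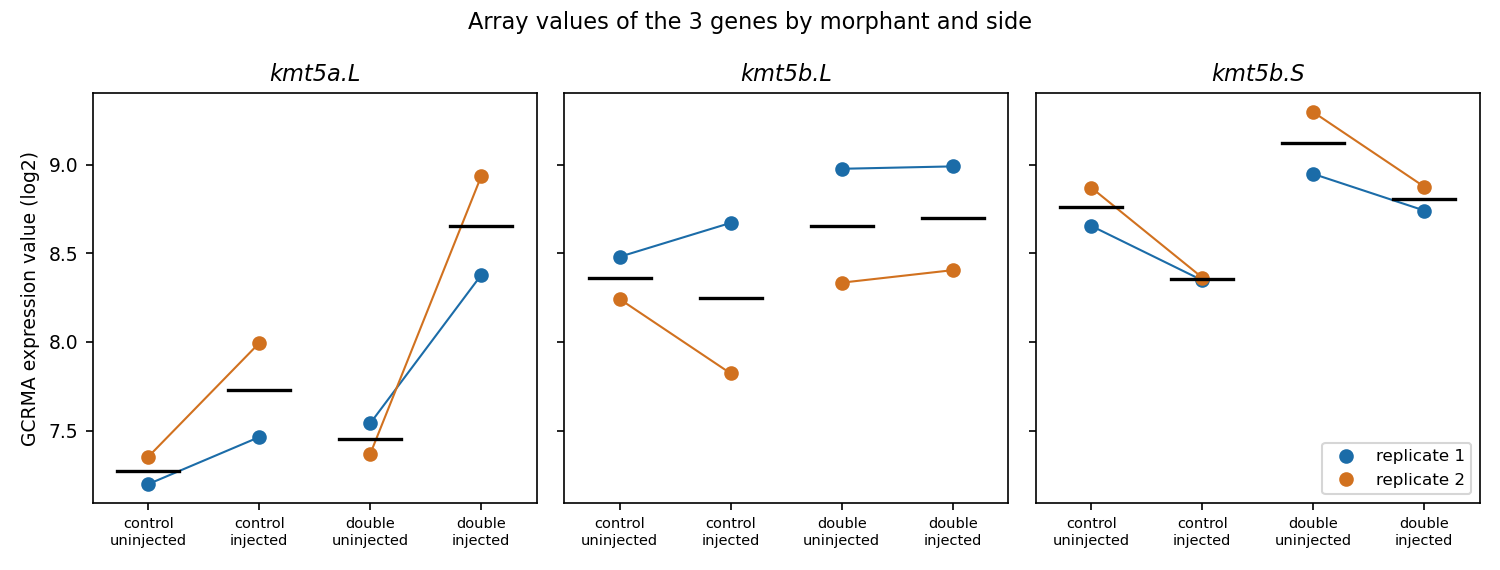
Log2 GCRMA values of kmt5a.L, kmt5b.L and kmt5b.S on all 8 arrays (vertical axis, log2), by morphant and side; points are arrays, coloured by replicate number, lines join injected and uninjected sides of the same kind of morphant and number, and black bars are group means. Both injected sides of double morphants lie above the 6 other arrays for kmt5a.L (8.38 and 8.93), kmt5b.L separates by replicate, and kmt5b.S is lower on the injected side in all 4 pairs.

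kmt5b encodes xSuv4-20h1, one of the targets of the morpholinos. The probe set of kmt5b.L read 8.67 and 7.82 (replicates 1 and 2) in injected sides of control morphants and 8.48 and 8.24 in their uninjected sides. In double morphants it read 8.99 and 8.40 in injected sides and 8.98 and 8.33 in uninjected sides. The groups overlapped, and within each group replicate 1 was the higher array. In double morphants the paired sides differed by only 0.014 and 0.071, and in control morphants by 0.19 and −0.42, which have opposite signs.

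No difference of kmt5b.L between sides or morphants passed a threshold. In double morphants the log2 fold change of injected against uninjected sides was 0.04 (SE 0.38, 95% interval −0.89 to 0.97). In control morphants it was −0.11 (SE 0.38), and the difference between these effects was 0.16 (SE 0.54, 95% interval −1.16 to 1.47). Injected sides of double morphants were 0.45 above those of control morphants (SE 0.38, 95% interval −0.48 to 1.38), and uninjected sides 0.29 above (SE 0.38). The same-number differences between morphants were all above 0, 0.32 and 0.58 on injected and 0.50 and 0.093 on uninjected sides. Part of the SE was the difference between replicates: with the replicate number as a block the SE was 0.17, and the difference between injected sides of 0.45 had an unadjusted p of 0.0405 and an adjusted p of 0.128, in a fit where 34.2% of genes had an unadjusted p under 0.05. The intervals between sides reach about 1 on the log2 scale in either direction, and the signs turned when single arrays were left out (−0.28 to 0.36 in double and −0.54 to 0.31 in control morphants).

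What set the arrays of kmt5b.L apart was the replicate number. Replicate 2 was below replicate 1 in all 4 groups, with differences of −0.85 and −0.24 for control morphants (injected, then uninjected side) and of −0.59 and −0.64 for double morphants. A drop in all 4 groups was found for 2159 of 8219 genes (26.3%). With the 4 group means in the model, the replicate difference was −0.58 (SE 0.12, 95% interval −0.88 to −0.28, limma adjusted p = 0.0195, local fdr 0.91). By adjusted p under 0.05, 2608 genes (31.7%) differed between replicates, while the local fdr called 183 (2.23%), so kmt5b.L was one of many genes by the first rule and did not pass the second.

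kmt5b.S, the copy of the same gene on the short chromosome, was lower on the injected side of every pair. It read 8.35 and 8.36 in injected sides of control morphants and 8.65 and 8.87 in their uninjected sides. In double morphants it read 8.74 and 8.88 in injected sides and 8.95 and 9.30 in uninjected sides. The injected side was the lower one in all 4 pairs, by 0.31 and 0.51 in control morphants and by 0.21 and 0.42 in double morphants. Such a uniform direction was seen for 1472 genes (17.9%). Double morphants were higher than control morphants in all 4 same-side, same-number comparisons, by 0.39 and 0.51 on injected and by 0.29 and 0.43 on uninjected sides. This was so for 1202 genes (14.6%), all 3 members among them.

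None of these shifts of kmt5b.S passed a threshold. The log2 fold change of injected against uninjected sides was −0.31 in double morphants (SE 0.19, 95% interval −0.77 to 0.14, adjusted p = 0.39) and −0.41 in control morphants (SE 0.19, 95% interval −0.86 to 0.05, local fdr 0.24). The difference between the effects was 0.09 (SE 0.26, 95% interval −0.55 to 0.74). Against control morphants, double morphants were 0.45 higher on injected sides (SE 0.19, unadjusted p = 0.0514, adjusted p = 0.29, local fdr 0.81). On uninjected sides they were 0.36 higher (SE 0.19, 95% interval −0.10 to 0.82, local fdr 0.56). Without the filter on low values the local fdr of the last 2 was 0.145 and 0.0706 and that of the sides of control morphants 0.0280, where 15%, 6.96% and 8.69% of 10273 genes were called, and the last was 0.187 without either uninjected array of double morphants. The direction of the injected side was thus shared by both kinds of morphant, and the higher level of double morphants by both sides.

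The copies of kmt5b had like differences between morphants (0.45 and 0.45 on injected, 0.29 and 0.36 on uninjected sides for kmt5b.L and kmt5b.S) and replicate differences of opposite sign. Over the 8 arrays their Pearson correlation was 0.18, as a description only, since arrays share groups and experiments. The replicate difference of kmt5b.S was above 0 in all 4 groups (0.016 to 0.35), as for 2291 genes (27.9%), with a fitted value of 0.18 (SE 0.09, adjusted p = 0.18). The .L and .S copies are close in sequence, and whether their probe sets separate them was not tested.

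kmt5a.L, the gene of the monomethylating enzyme, had the largest difference of the 3. It read 8.38 and 8.93 in injected sides of double morphants and 7.54 and 7.37 in their uninjected sides. In control morphants it read 7.46 and 7.99 in injected sides and 7.20 and 7.35 in uninjected sides. Both injected sides of double morphants were above the 6 other arrays, as for 1000 of 8219 genes (12.2%). The injected side was higher in all 4 pairs, by 0.84 and 1.57 in double morphants and by 0.27 and 0.64 in control morphants, a direction shared by 2082 genes (25.3%).

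In double morphants the injected sides were 2.30-fold above the uninjected sides (log2 fold change 1.20, SE 0.27, 95% interval 0.54 to 1.86). The unadjusted p was 0.00417, the adjusted p 0.102 and the local fdr 0.52. In this comparison 1745 genes (21.2%) had an unadjusted p under 0.05 and 133 (1.62%) were called by local fdr, none by adjusted p. The size of the change was larger than that of 93.4% of all genes tested, and it was not called. A share of that order at an unadjusted p under 0.05 means that an interval clear of 0 was common here.

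The same difference between sides was 0.45 in control morphants (SE 0.27, 95% interval −0.20 to 1.11, local fdr 0.84), where 327 genes (3.98%) were called. The difference between the effects was 0.75 (SE 0.38, 95% interval −0.18 to 1.68, unadjusted p = 0.0969, adjusted p = 0.80), in a comparison with 260 called genes (3.16%). The injection effects on kmt5a.L thus differed by less than the spread of the arrays allows to call. Between kinds of morphant, injected sides differed 1.90-fold (log2 fold change 0.93, SE 0.27, 95% interval 0.27 to 1.59, adjusted p = 0.157, local fdr 0.45), with same-number differences of 0.91 and 0.94. There 460 genes (5.6%) were called by local fdr, 34 (0.414%) by adjusted p, and 1436 (17.5%) had an unadjusted p under 0.05. Uninjected sides differed by 0.18 (SE 0.27, 95% interval −0.48 to 0.84), in a comparison with 203 called genes (2.47%).

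Whether kmt5a.L passed depended on the setting. Without the filter on low values its local fdr was 0.0774 between sides of double morphants and 0.0752 between injected sides, where 10% and 15% of 10273 genes were called. With the replicate number as a block, the former had an adjusted p of 0.0231 and the latter one of 0.0409, while the local fdr was 0.998 and 0.79. By adjusted p, 1855 (22.6%) and 1263 genes (15.4%) passed with this block. With a standard normal null in place of one fitted to the arrays, the local fdr was 0.000686 and 0.0327, a setting under which 2002 and 1391 genes were called. Without the first injected array of double morphants, the injected sides of the kinds of morphant differed by 1.21 and kmt5a.L was called (local fdr 0.123).

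Of the marker lists, 1 of 10 neural plate genes was called between sides in each kind of morphant (zic1.S in double, nova1.L in control morphants). In control morphants 1 of 9 mesoderm (not.L) and 1 of 11 epidermis genes (grhl1.L) were also called. No call fell among 4 multiciliated cell and 8 endoderm genes. Of all genes tested, 1.62% were called between sides of double and 3.98% between sides of control morphants. With lists this short, 1 call does not describe a cell type. The largest median shift between sides was that of mesoderm in control morphants, −0.65, with list means of 8.71 to 10.20 in injected and 10.01 to 10.38 in uninjected sides, against −0.05 in double morphants (9.49 to 10.46 and 9.94 to 10.08). Between replicates the median of this list was of like size, −0.67. The mean of 10 neural plate genes lay between 8.79 and 9.28 in injected and between 9.28 and 9.40 in uninjected sides of double morphants, and between 8.30 and 9.20 and between 9.09 and 9.34 in those of control morphants. Their median shift was −0.14 in double and −0.36 in control morphants. The epidermis list lay between 10.47 and 10.96 and the endoderm list between 8.47 and 9.21 over all arrays, with median shifts of −0.15 and 0.13 in double and 0.03 and 0.13 in control morphants. The mean of 4 genes of multiciliated cells was 7.73 to 8.13 and 7.69 to 7.83 in double morphants (median shift 0.22), and 7.74 to 8.03 and 7.49 to 7.61 in control morphants (0.35). Most of these ranges overlapped between sides. Their part in the values of kmt5a.L and kmt5b.S was not tested, and in pooled tissue fewer cells of a type and less RNA per cell cannot be told apart.

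**Figure D2:**
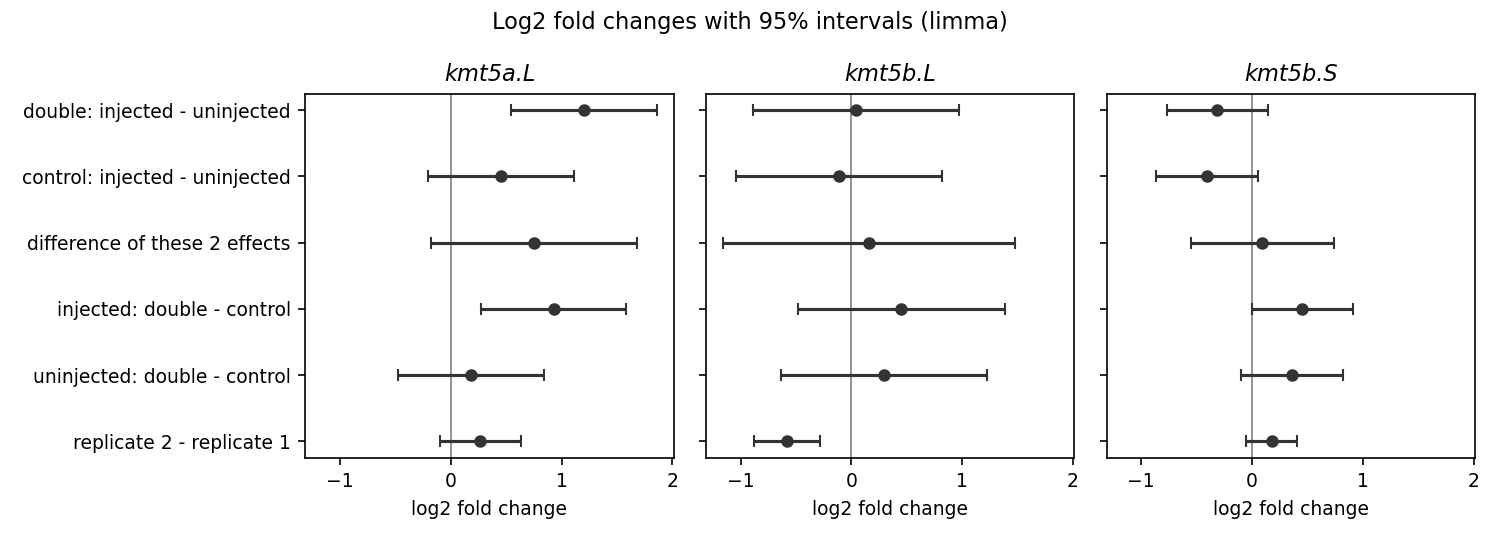
Log2 fold changes (horizontal axis) of the 3 genes in 6 comparisons, fitted with limma over 8219 genes; points are estimates and bars 95% intervals. The intervals of kmt5a.L are clear of 0 for injected against uninjected sides of double morphants (0.54 to 1.86) and for injected sides of double against control morphants (0.27 to 1.59), and that of kmt5b.L only for replicate 2 against replicate 1.

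Among the 3 genes, the arrays placed kmt5b.L between 7.82 and 8.99, kmt5b.S between 8.35 and 9.30 and kmt5a.L between 7.20 and 8.93. These are levels of different probe sets and their order says nothing about the amounts of the mRNAs. kmt5a.L varied most, with an SD of 0.61 over the 8 arrays, above 83.1% of genes tested, followed by kmt5b.L with 0.39 (57.1%) and kmt5b.S with 0.31 (42.0%). kmt5a.L did not follow either copy of kmt5b (Pearson r of 0.04 with kmt5b.L and −0.06 with kmt5b.S over 8 arrays).

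The remaining genes of the family were kmt5a.S and kmt5c.L. kmt5c encodes xSuv4-20h2, the other target of the morpholinos. Its single probe set, of kmt5c.L, stood at the lowest value of the arrays, 2.14, on 7 of 8 arrays and at 2.38 in replicate 2 of the injected sides of control morphants. It failed the filter, and no fold change is given.

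kmt5a.S had 3 probe sets, which disagreed with each other between replicates. The first, Xl2.46189.1.A1_at, was the most variable one and stood for the gene in the tests. It read 9.16 and 7.63 in injected and 9.25 and 7.76 in uninjected sides of control morphants, and 9.41 and 8.09 in injected and 9.07 and 7.27 in uninjected sides of double morphants. Replicate 2 was below replicate 1 by 1.33 to 1.80 in the 4 groups, a fitted difference of −1.54 (SE 0.10, adjusted p = 0.00186, local fdr 0.00396). The second, Xl2.46189.3.S1_a_at, was higher in replicate 2 by 0.57 to 1.37, and the third, Xl2.54481.1.S1_at, by 0.35 to 0.90. Probe sets listed for one gene therefore ranked the replicates in opposite ways, and why was not tested.

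Between sides, the probe sets of kmt5a.S had the same sign as kmt5a.L in double morphants. The injected side was higher in both pairs for all 3 probe sets, by 0.34 and 0.81, by 0.53 and 1.00, and by 0.29 and 0.66. Fitted without the replicate, these were differences of 0.58 (SE 0.90), 0.76 (SE 0.64) and 0.48 (SE 0.44), and none was called. These SEs include the replicate differences given above, so they do not measure the spread of the paired differences. The share of all genes with a higher injected side in both pairs of double morphants was not counted. It is at least the 25.3% (2082 genes) that were higher in all 4 pairs. The 3 probe sets are listed for the same gene and were read on the same arrays, so they are no independent support of each other. In control morphants the first probe set differed by −0.08 and −0.13 and the others by 0.09 to 0.41. Between morphants the probe sets did not repeat the difference of kmt5a.L. Injected sides of double against control morphants differed by 0.35 (SE 0.90), −0.05 (SE 0.64) and 0.10 (SE 0.44), against 0.93 for kmt5a.L. Uninjected sides differed by −0.33, −0.49 and −0.25, against 0.18 for kmt5a.L.

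**Figure D3:**
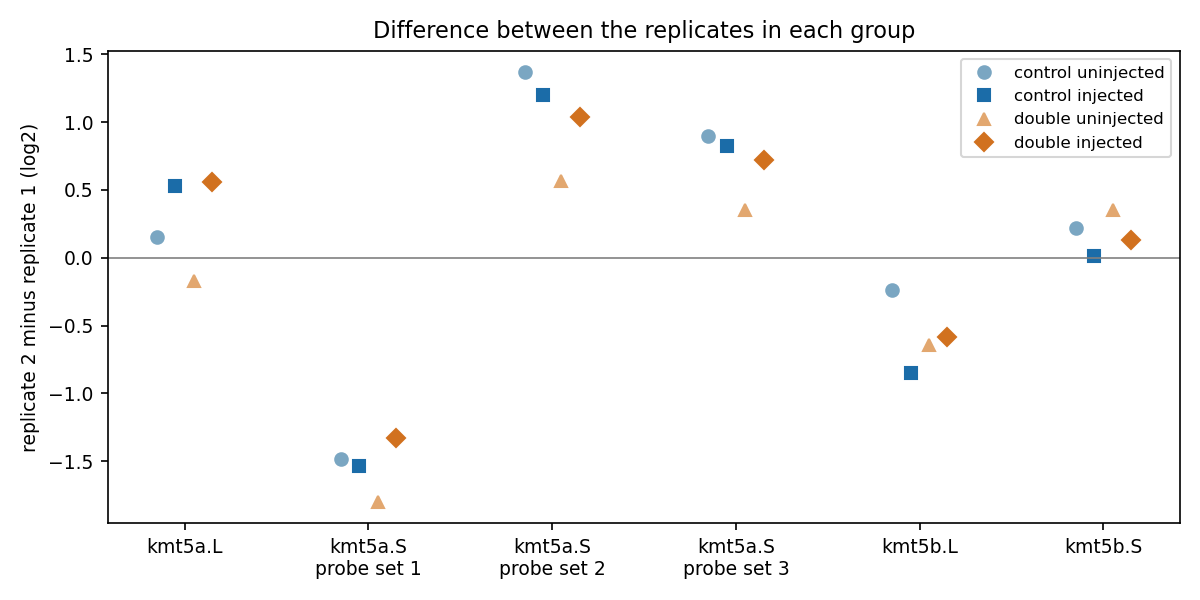
Difference between replicate 2 and replicate 1 (vertical axis, log2) in each of the 4 groups for the probe sets of kmt5a.L, kmt5a.S, kmt5b.L and kmt5b.S; marker shape and colour give the group. kmt5b.L is below 0 in all 4 groups (−0.85 to −0.24), and the 3 probe sets of kmt5a.S, in the order of the text, lie on both sides of 0.

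The wider machinery of H4K20 methylation was described with a list of 47 entries: writers, demethylases, readers, partners in heterochromatin and genes that control Kmt5a turnover. The writers include the members themselves and kmt5a.S, so the list values below contain them. For 34 entries the arrays had a gene, 42 genes in all, of which 39 were tested. The list was chosen with earlier results of these data known, so its shares are a description and no test. In injected against uninjected sides of double morphants 1 of 39 genes was called, lower (2.56%, against 1.62% of all genes). In control morphants 2 were called, both lower (5.13% against 3.98%), and in the difference of the effects 1, lower (2.56% against 3.16%). These shares are near those of all genes. Between injected sides of double and control morphants 5 of 39 genes were called, all 5 lower and none higher (12.8%), where 5.6% of all genes were called and 3.19% as lower. The count of list genes called in either direction fell when any single injected array was left out. It rose without either uninjected array of double morphants, and was 0 with the replicate block. It was 4 with the filter at a mean of 6, which dtl.L does not pass. With no filter on low values it was 11, where 15% of 10273 genes were called. Those included the 5 lower genes and also kmt5a.L and kmt5b.S, which were higher. The 5 include both copies of dtl, and dtl.L passed the filter at 4 only through the groups where it was higher. Uninjected sides gave 0 calls by limma with local fdr and 0 by adjusted p, with 1 gene at an unadjusted p under 0.05. Between replicates 2 of 39 were called, kmt5a.S and btrc.S, both lower in replicate 2 (5.13%, against 2.23% of all genes). btrc.S differed by −0.94 (SE 0.08, local fdr 0.0798, limma adjusted p = 0.0029). Both calls depended on the probe set kept: with the brightest one the replicate difference was 0.0038 for btrc.S and 0.70 for kmt5a.S, without a call. The median log2 fold change over the list was −0.10 on injected sides, against −0.01 over all genes.

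Of the genes lower on injected sides of double morphants, dtl.S, dtl.L and ddb1.S belong to the turnover of Kmt5a. dtl encodes Cdt2, the substrate receptor of the ligase that destroys Kmt5a, and ddb1 its adaptor. dtl.S read 8.13 and 8.20 in injected sides of double morphants, against 9.38 and 9.19 in injected sides of control morphants, and 9.01 to 9.40 on all uninjected sides. The 2 arrays lay below the 6 others, as for 959 genes (11.7%). Its log2 fold change between injected sides was −1.12 (SE 0.19, 95% interval −1.58 to −0.65, local fdr 0.00496, adjusted p = 0.0650). dtl.S was also the gene of the list whose side effect differed between kinds of morphant, by −1.01 (SE 0.27, local fdr 0.0295, adjusted p = 0.67).

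dtl.L, the other copy, passed the filter at 4 only through the groups where it was higher (means of 4.12 to 4.29, against 3.46), so its call is no support of its own. It read 3.57 and 3.36 in injected sides of double morphants, against 4.04 to 4.41 on the 6 other arrays. Its log2 fold change between injected sides was −0.78 (SE 0.18, local fdr 0.121, adjusted p = 0.105). ddb1.S read 9.52 and 9.71, against 10.26 and 10.30 in injected sides of control morphants. It too was lowest in injected sides of double morphants, though its uninjected sides there, 10.06 and 9.87, were also below those of control morphants, 10.39 and 10.34. Its log2 fold change between injected sides was −0.66 (SE 0.16, local fdr 0.149, adjusted p = 0.112). Of the other 10 turnover genes tested none was called in this comparison. pcna, whose product carries the ligase to chromatin, had log2 fold changes of −0.13 (pcna.L, SE 0.19) and −0.35 (pcna.S, SE 0.17). Not all turnover genes were lower there: cdc20.L, cdc20.S and btrc.L were above 0, at 0.42 (SE 0.21), 0.44 (SE 0.23) and 0.089 (SE 0.70). The median over the 13 turnover genes was −0.50.

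The other calls were a writer and an eraser. smyd5.L, whose mammalian counterpart has been described to trimethylate H4K20, read 7.87 and 8.21 in injected sides of double morphants, 8.95 and 8.87 in injected sides of control morphants and 8.42 to 8.75 on uninjected sides. The log2 fold change between injected sides was −0.87 (SE 0.19, local fdr 0.0776, adjusted p = 0.0950). kdm7a.S, a gene of the Kdm7 family of histone demethylases, read 6.32 and 6.26 against 7.08 and 7.08 (log2 fold change −0.79, SE 0.18, local fdr 0.0813, adjusted p = 0.0950). On uninjected sides it read 6.44 and 6.80 in double and 6.84 and 6.84 in control morphants. Its injected against uninjected sides differed by −0.33 in double (SE 0.18, local fdr 0.98) and 0.24 in control morphants (SE 0.18, local fdr 0.89), without a call. phf8.L, the demethylase of H4K20me1 in mammals, had a log2 fold change of −0.31 between injected sides (SE 0.28) with overlapping groups, 7.50 and 7.30 against 8.02 and 7.39. nsd2.S read 3.14 to 3.83 on its 2 probe sets and was not tested.

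Of 12 partners in heterochromatin, none was called between injected sides. dnmt1.S, the gene of maintenance DNA methyltransferase, was lower on injected than on uninjected sides of both kinds of morphant. It read 7.10 and 7.41 against 8.33 and 8.85 in double morphants (log2 fold change −1.34, SE 0.23, local fdr 0.0929, adjusted p = 0.0877). In control morphants it read 7.37 and 7.34 against 8.31 and 8.46 (log2 fold change −1.03, SE 0.23, local fdr 6.48e-05, limma unadjusted p = 0.00388, adjusted p = 0.74). The other copy, dnmt1.L, was not called in either. Its log2 fold change was −0.57 in double (SE 0.30, local fdr 0.98) and −0.31 in control morphants (SE 0.30, local fdr 0.87). uhrf1.S, whose product guides Dnmt1 to replicated DNA, was called in control morphants (−0.50, SE 0.17, local fdr 0.0526) and lost without any single array of control morphants (0.28 to 0.78), with the replicate block (0.327), with pairs of sides as a block (0.395) and with its brightest probe set (log2 fold change −0.23, local fdr 0.74). Its difference between morphants was not called. The call of dnmt1.S in double morphants was lost without either injected array of control morphants (0.209), without injected replicate 1 (0.80) and without uninjected replicate 2 of double morphants (0.202), and also with the replicate block (0.505, limma adjusted p = 0.0168). Its call in control morphants was lost without injected replicate 1 (0.201) and without uninjected replicate 2 of control morphants (0.34). Of 7 readers none was called in any comparison. None of the list calls between sides or between morphants passed an adjusted p of 0.05 in the main fit. Each of the 5 between injected sides was lost with the replicate block (local fdr 0.31 to 0.65), though their limma adjusted p was then 0.0190 to 0.0349. All 5 were also lost without replicate 1 of the injected sides of control morphants (dtl.S: 0.269) and without replicate 1 of the injected sides of double morphants (dtl.S: 0.207). Without replicate 2 of the former dtl.S alone of the 5 stayed called (0.140), without replicate 2 of the latter dtl.S and smyd5.L did (0.172 and 0.151), and ddb1.S was also lost without either uninjected array of control morphants (0.30).

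**Figure D4:**
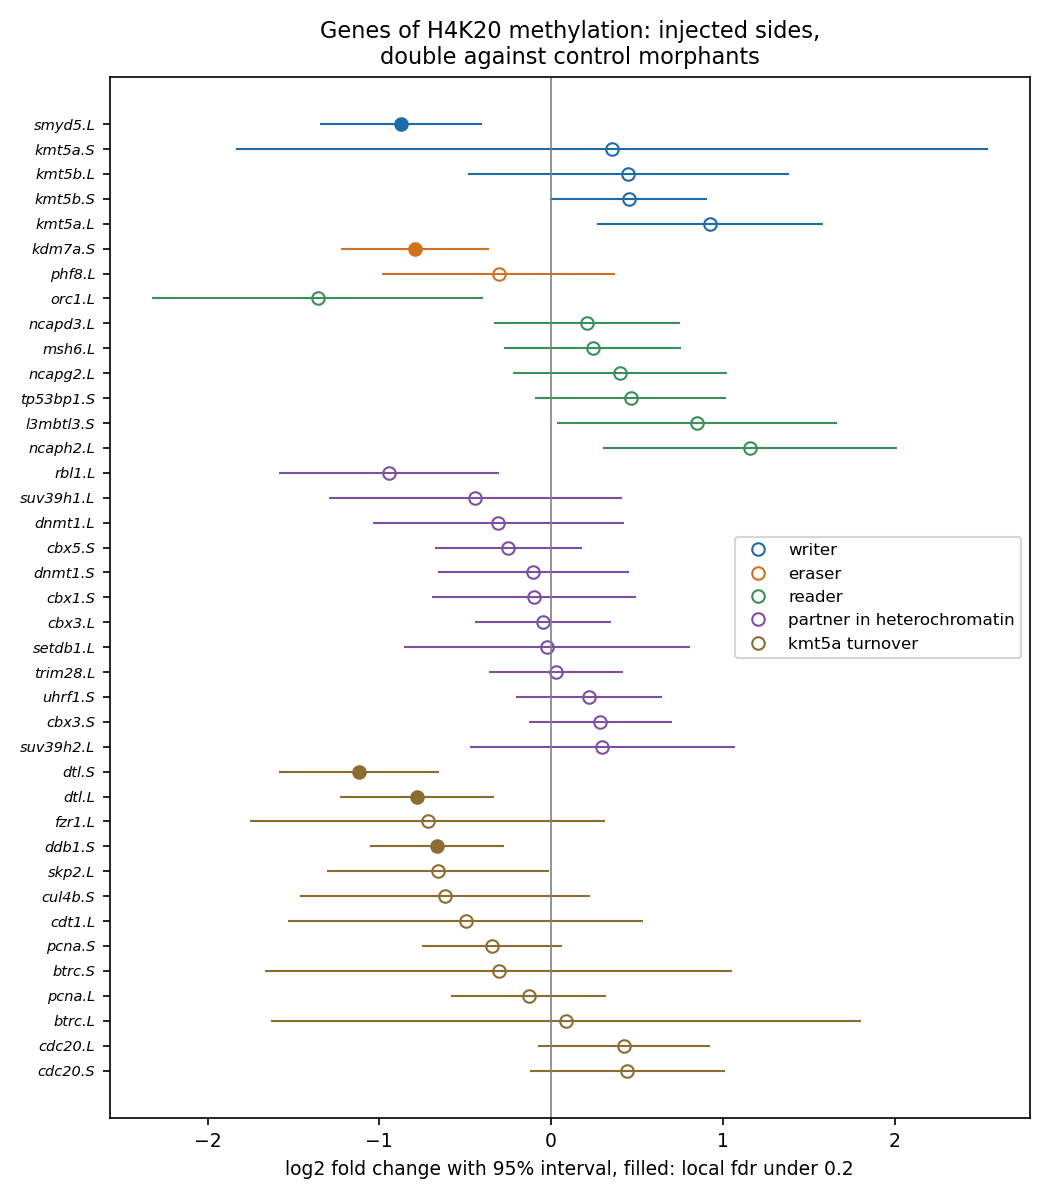
Log2 fold changes between injected sides of double and control morphants (horizontal axis) with 95% intervals for 39 genes of H4K20 methylation, coloured by role; filled points have a local fdr under 0.2. The 5 filled points, smyd5.L, kdm7a.S, dtl.S, dtl.L and ddb1.S, lie below 0, and kmt5a.L at 0.93 and both kmt5b genes at 0.45 lie above it without a call.

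Genes with the array pattern most like that of each member were sought among 5894 genes with an SD of at least 0.25. kmt5a.L was most like nipa1.L (Pearson r 0.993 over 8 arrays), ccnb1.2.L (0.990), a copy of cyclin B1, and ubxn4.S (0.985), and 247 genes had r above 0.9. For kmt5b.L these were ythdf3.S (0.991), c19orf47.L (0.972) and stat3.2.L (0.971), with 63 genes above 0.9. For kmt5b.S they were slc27a3.L (0.967), pfn2.L (0.966) and appbp2.S (0.955), with 20 above 0.9. The 8 arrays share groups and experiments, so these values rank likeness and are no test.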

How the data were processed

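Total RNA of 8 pooled samples was hybridised to *Xenopus laevis* Affymetrix arrays, and the deposited log2 values were computed by the authors with GCRMA (version not given in the sources used here). Groups, sides and replicate numbers came from the labels. In place of the authors' filter by present calls, which takes probe intensities not used here, genes had to reach a group mean of 4 (log2) in any group and a variance above 0. The most variable probe set was kept per gene. Of 32635 probe sets, 15505 were listed with 1 gene, 279 with several and 16851 with none. Of the first, 10 control probe sets were left out, and 10805 passed the filter (8219 genes). Symbols come from the platform annotation and can be old.

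Limma 3.58.1 in R 4.3.3 fitted 4 group means (4 residual degrees of freedom, prior 2.08), and the replicate comparison added the replicate number (3). Local fdr was rewritten after the locfdr method (120 bins, spline with 7 degrees of freedom, null fitted by maximum likelihood), since the package was not used here, and calling was tested on simulated data. It was computed on the moderated t values, as the study's methods describe, and not on z values. It is no bound on the share of wrong calls and no probability for a single gene. Its fitted null had an SD of 1.72 for sides of double morphants and 0.87 for those of control morphants, so the same statistic can pass in one and fail in the other.

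Members and gene lists were chosen with earlier results of these data known. Named were the probe sets of the members, the writers, erasers and called genes of the H4K20 list, and the 3 genes most like each member. Other list genes, such as pcna and dtl in comparisons without a call, were chosen for their role. p-values measure the spread between these pooled samples. Replicate numbers were read as experiments: deviations from the group means correlated across genes by 0.77 and 0.65 between sides of the same kind of morphant, 0.80 and 0.69 between same sides, and 0.69 and 0.50 otherwise. Blocks, filters, probe set choice, scaling, call rules and leaving out arrays were tried as alternatives.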

Additional observations from a re-analysis of the deposited data

Results flagged for a closer look

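One value stood out by a difference between groups. The log2 fold change of dtl.S from the uninjected to the injected side was −0.98 in double morphants and 0.03 in control morphants, and these effects differed by −1.01 (SE 0.27, limma adjusted p = 0.67, local fdr 0.0295). The call was lost with the replicate block (local fdr 0.65), with pairs of sides as a block (0.22) and without 6 of the 8 arrays in turn (0.21 to 0.81), that is, both injected arrays of each kind of morphant and replicate 2 of both uninjected groups.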

How the results depend on the processing

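Values of the members kept their direction and their side of the threshold in 356 recomputations, passed the threshold in 12 and changed sign in 10. Most settings could not change a sign. Each member has 1 probe set and the groups are balanced, so blocks, filters, probe set choice and call rules leave its fold change as it was. Only scaling and left-out arrays could move it, and all changes of sign came from left-out arrays. Without the filter on low values, kmt5a.L was called between sides of double morphants (1.20, local fdr 0.0774) and between injected sides (0.93, 0.0752), and kmt5b.S between sides of control morphants (−0.41, 0.0280) and between morphants on injected (0.45, 0.145) and uninjected sides (0.36, 0.0706). With the theoretical null, kmt5a.L was called in the same comparisons (1.20 and 0.93) and kmt5b.L between replicates (−0.58, local fdr 4.38e-05). That null called 4490 of 8219 genes (54.6%) between replicates, and 24.4% and 16.9% in the comparisons of kmt5a.L. By adjusted p kmt5b.L also passed between replicates (−0.58, limma adjusted p = 0.0195), where 2608 genes (31.7%) passed. Leaving out each array in turn gave kmt5b.L values of −0.28 to 0.36 between sides of double and −0.54 to 0.31 between sides of control morphants, −0.27 to 0.58 for their difference and −0.027 to 0.62 between uninjected sides. It gave kmt5b.S values of −0.51 to −0.30 between sides of control morphants and −0.081 to 0.27 for the difference, and kmt5a.L values of 0.65 to 1.21 between injected sides and 0.92 to 1.48 between sides of double morphants. Over all settings the adjusted p of this last value ran from 0.0231 to 0.42.

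The replicate block, and pairs of sides as a block, changed no call of a member by local fdr. By limma adjusted p, kmt5a.L passed between sides of double morphants with either block (0.0231 and 0.0275, log2 fold change 1.20). There 1855 genes (22.6%) passed with the replicate block and 2300 (28%) with pairs of sides. With the replicate block 22, 206, 60, 224 and 171 genes were called in place of 133, 327, 260, 460 and 203 (sides of double morphants, sides of control morphants, their difference, injected sides, uninjected sides), and with pairs of sides 93, 292 and 129 in the first 3. Over the other settings these counts ran from 0 to 2002, 0 to 893, 0 to 1183, 0 to 1543 and 0 to 715, the lowest with adjusted p or local fdr on z values and the highest with no filter or, for sides of double morphants, the theoretical null. With another probe set, the replicate difference was 0.70 for kmt5a.S and 0.0038 for btrc.S (−0.94 as reported), the latter also with the stricter filter. Values of the other named genes stayed called in 151 recomputations and were lost in 75. The cause of these changes was not tested. With 2 arrays per group, a change under about 1 on the log2 scale can stay within the interval of a member.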
